A study of Mus musculus with 4 samples.

Results

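Keratins, claudins and epithelial junction genes were followed in RNA sequencing libraries of sorted adipocyte precursor cells, stromal progenitors from which fat cells form. The members were every row of the deposited tables named Krt or Cldn followed only by a number, plus 10 named epithelial, mesothelial and mammary genes, of which 9 were in the tables. Muc16 was not analysed here. This gave 78 of 20207 genes: 6 simple keratins, 18 basal and stratified keratins, 21 hair keratins, 2 other keratins, 22 claudins, the adhesion genes Epcam and Cdh1, 4 mesothelial genes and 3 mammary genes. Rows were picked by gene name, but the rule was set with earlier results of these data known.

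The libraries were 2 from C57BL/6 mice labelled as knockout for the period gene Per3 and 2 from wild-type (WT) littermates. All mice were young, and RNA was taken at zeitgeber time 2 h, counted from lights on. In both groups the cells had been sorted from fresh adipose tissue as Sca1+ CD45- CD31-, a gate on the stem cell antigen Sca1 that leaves out blood cells and endothelium but has no term for epithelium. The labels name no fat depot, no altered part of Per3 and no number of animals per library, and p-values here reflect the spread among these libraries alone, which may be technical. Per3 had 193 and 768 reads in the libraries labelled Per3 KO 1 and Per3 KO 2, against 121 and 170 in WT 1 and WT 2. It was thus not lower under the KO label, and those libraries are called KO-labelled here. A count over the whole gene is no check of a partial deletion. Total gene reads per library lay between 27950825 and 64964443.

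As background, keratins build the intermediate filaments of epithelial cells, and a filament needs a type I and a type II keratin as partners. Krt8 with Krt18 and Krt19 serve single-layered epithelia, Krt5 with Krt14 and Krt15 the basal layer of stratified ones, and others appear as those cells mature or in hair. Claudins are the membrane proteins of tight junctions that seal or form pores between neighbouring cells, while E-cadherin, encoded by Cdh1, holds the cells together at adherens junctions. Adipocyte precursors are mesenchymal. Mesothelium covers visceral fat and mammary ducts run through some subcutaneous fat, so both are epithelia that a dissection of fat can include.

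The label of the sort was read first. The fibroblast and precursor genes Pdgfra, at 211 and 453 CPM in KO-labelled libraries against 354 and 245 CPM in WT, and the proteoglycan Dcn, at 12440 and 11861 against 13494 and 12802 CPM, were abundant in every library. Ly6a, which encodes the Sca1 of the gate, stood at 3765 and 2132 CPM in KO-labelled libraries, against 2596 and 14268 CPM in WT. The adipogenic factor gene Pparg stood at 28.3 and 21.5 CPM, against 27.1 and 2.54 CPM, and Col1a1 at 27057 and 24608, against 21970 and 44866 CPM. In these 3 genes WT 2 stood apart from the other libraries. CPM are read counts scaled to the library total with a factor between libraries. The summed level of all 78 members was 111 and 160 CPM in KO-labelled libraries, against 168 and 237 CPM in WT. Most members were near or at 0. Reads were 0 in all 4 libraries for 24 genes, and 24 more had 1 to 9 reads over all libraries together. Cldn19, Krt16 and Krt222 had between 10 and 19 reads in all, and the other 27 members had at least 20. Of the 78 members 24 had enough reads to be tested.

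The genes that define the other epithelia of fat were at the limit of detection. The luminal progenitor factor Elf5 and the milk caseins Csn2 and Csn3 had 0 reads in every library. Of the mesothelial genes, Upk3b and Upk1b had 0 reads throughout, Lrrn4 had 1 read in Per3 KO 2 and mesothelin, Msln, had 1 in WT 1. The summed mesothelial level was 0 and 0.0137 CPM in KO-labelled libraries, against 0.0261 and 0 CPM in WT. Epcam, the adhesion molecule that marks most epithelia, had 0 and 1 read in KO-labelled libraries, against 0 and 1 in WT. A count of 0 allows up to 3 reads, or 0.0724 and 0.0412 CPM in Per3 KO 1 and Per3 KO 2 and 0.0782 and 0.129 CPM in WT 1 and WT 2. This floor covers counting error only. Outside the members, the mesothelial genes Wt1 and Lrp2 had 0 reads and Bnc1 had 67 in WT 2 alone, while Nkain4 had 326 and 447 reads in KO-labelled libraries against 408 and 583 in WT. Since these are bulk samples, fewer cells of a type and less RNA per cell cannot be told apart.

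Among the simple keratins Krt20, a type I keratin known from intestinal and urinary epithelium and Merkel cells, was the most abundant per length. The deposited RPKM, reads scaled for transcript length and library total, was 4.16 and 7.64 in KO-labelled libraries and 9.57 and 1.27 in WT for Krt20 (mm9 chromosome 11, 99289717 to 99299467). Its reads were 590 and 1805 in Per3 KO 1 and Per3 KO 2, against 1254 and 141 in WT 1 and WT 2. Every library carried it, WT 1 lay highest and WT 2 lowest, and the groups overlapped. Its mean was 19.5 ± 7.44 CPM in KO-labelled libraries and 19.4 ± 18.8 CPM in WT (SD, n = 2 each), with a log2 fold change of 0.0074 ± 0.81 (SE). The value ranged from -0.74 to 1.69 with a library left out.

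Krt19, the type I keratin of ducts and mesothelium, had 65 and 300 reads in KO-labelled libraries, against 287 and 50 in WT. The partners Krt8 and Krt18, which form the first filament of simple epithelia, did not share an order of libraries. Krt18 had 1 and 197.9 reads in KO-labelled libraries, against 46 and 0 in WT. Krt8, which lies 23.9 kb from Krt18 on mm9 chromosome 15 with no other row between them, had 0 and 71 reads in KO-labelled libraries, against 0 and 10 in WT. In WT 1 Krt18 was thus read without Krt8, and in WT 2 Krt8 without Krt18. Krt7, the type II keratin of ducts and mesothelium, had a single read, in Per3 KO 2. The log2 fold changes were -0.76 ± 1.10 for Krt19, 1.18 ± 2.55 for Krt18 and 1.21 ± 2.87 for Krt8 (SE), all with overlapping groups. Krt8 was 0.19 without WT 1, 7.65 without WT 2, when the WT library left had 0 reads, and not tested without Per3 KO 2.

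Krt23, a type I keratin, separated the groups. It had 0 and 0 reads in KO-labelled libraries, against 79 and 47.99 in WT, which is 0 against 2.06 ± 0.0017 CPM (SD, n = 2). Against a floor of 3 reads per library Krt23 was at least 36.3-fold lower in KO-labelled libraries, and at least 36.3-fold lower with either WT library left out. Its row (mm9 chromosome 11, 99339287 to 99354424) is the next one after Krt20, 39.8 kb away, and that neighbour was read in all libraries.

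The basal keratins were sparse. Krt5 had 1.998 and 29.94 reads in KO-labelled libraries, against 42.97 and 0.9976 in WT, and its partner Krt14 had 0 and 8, against 14 and 2. Krt15, a type I keratin of basal and hair follicle stem cells, had 15 and 78.89 reads in KO-labelled libraries, against 17 and 1 in WT. Krt13 and Krt4, the pair of the maturing cells in oral and oesophageal lining, were both higher in Per3 KO 2 and WT 1 than in the other libraries. Krt13 had 12 and 303 reads in KO-labelled libraries, against 101 and 11 in WT, and Krt4 had 0 and 25.98, against 25.98 and 0. Krt76, known from the palate, had 0 and 10 reads in KO-labelled libraries, against 15 and 0 in WT. In Krt5, Krt4, Krt13, Krt15 and Krt76 the counts were higher in Per3 KO 2 and WT 1 than in Per3 KO 1 and WT 2, so the libraries of each group stood apart from each other. This was not particular to stratified keratins. Scaled for depth, the order also held in Krt14 and in the simple keratins Krt18, Krt19 and Krt20, but not in Krt8, Krt9, Krt10, Krt23, Krt36 or Krt80. Nor was it particular to keratins, since it held in Cldn12 and Cldn15, though not in Cldn10. Among precursor genes it held in Pdgfra and Dpp4, though not in Ly6a or Dcn. The share of all genes with this order was not counted. Outside the members, Krt6b of activated epidermis was also highest in Per3 KO 2 and WT 1, with 26.97 and 139.7 reads in KO-labelled libraries against 48.94 and 0 in WT.

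**Figure D1:**
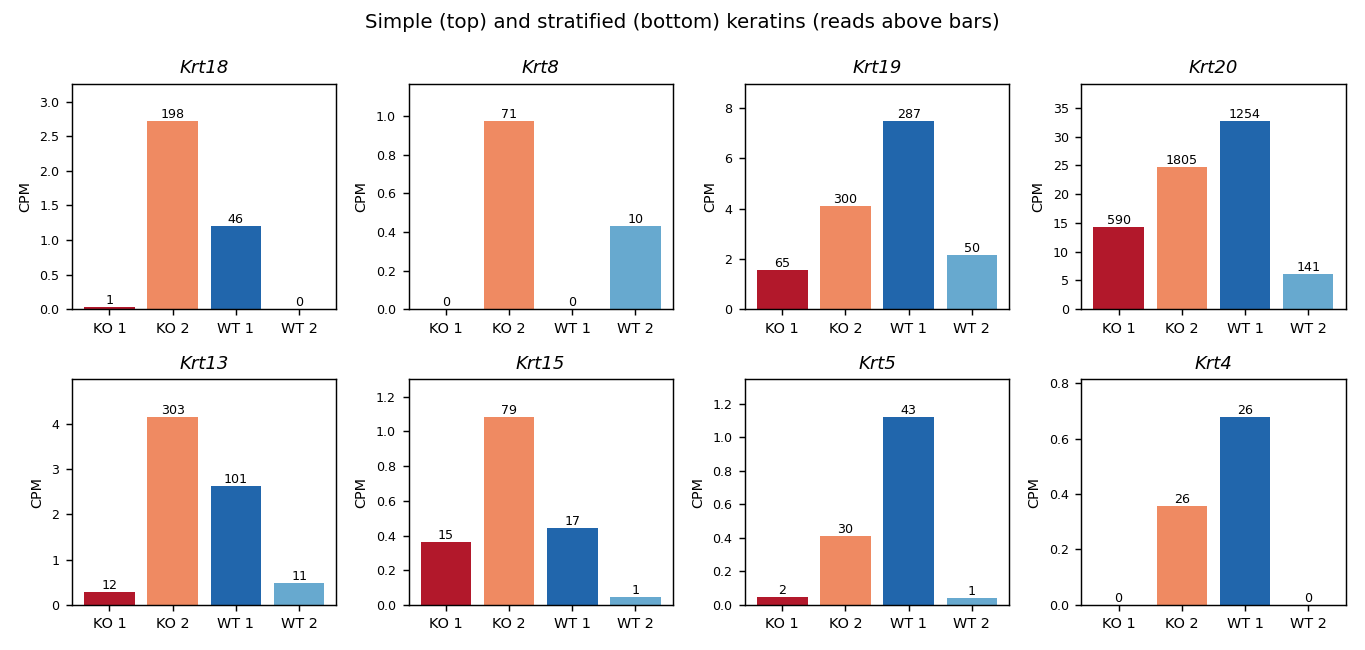
Normalised level (CPM, y axis from 0) of 4 simple and 4 stratified keratins in each library (x axis), with the rounded reads above each bar. Krt18, Krt19, Krt20, Krt13, Krt15, Krt5 and Krt4 stand higher in Per3 KO 2 and WT 1 than in Per3 KO 1 and WT 2, while Krt8 is at 0 in Per3 KO 1 and WT 1.

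Krt10, the type I keratin of the upper epidermis, was the most abundant of the stratified keratins by mean RPKM, with 177 and 223 reads in KO-labelled libraries, against 216 and 53.99 in WT. Its partners Krt1 and Krt2 had at most 1 read in any library. Krt80, a type II keratin, had 31 and 25 reads in KO-labelled libraries, against 67 and 0 in WT. Krt9, known from palm and sole, had 8.845 and 11.91 reads in KO-labelled libraries, against 13.84 and 12.92 in WT. Log2 fold changes of the 7 stratified keratins tested ran from -1.33 ± 2.31 for Krt5 to 1.54 ± 2.09 for Krt15 (SE), which ranged from 0.55 to 3.997 with a library left out. The groups did not overlap in 1 of the 7, Krt9, which was lower in both KO-labelled libraries, as were 11.5% of all genes tested. Krt9 had enough reads to be tested in the WT group only, so it had to differ to be tested.

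Of the 21 hair keratins, 12 had no read and 8 had at most 3 over all libraries. The exception was Krt36, a type I keratin of hair and nail, with 235 and 162 reads in KO-labelled libraries, against 443 and 206 in WT. Scaled for depth it stood at 3.95 ± 2.44 CPM in KO-labelled libraries and 10.2 ± 1.91 CPM in WT (SD, n = 2), with no overlap and a log2 fold change of -1.37 ± 0.79 (SE), or -2.21 to -0.85 with a library left out. The Krt36 row is unusual in its length. The deposited RPKM implies a length 2.12 times that used for Krt20, while the annotated Krt36 transcript is 0.867 times the Krt20 transcript in GENCODE M21. Set on the scale of the Krt20 transcript of 1927 bases, that is 4088 bases, next to a genomic span of 4094 bases for the Krt36 row and 1671 bases for the transcript. In the other tested members the implied length was between 0.443 and 1.01 times the longest annotated coding transcript. Reads outside the annotated exons can therefore be part of the Krt36 count, and how many was not tested.

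Taken by filament type, the keratins were unbalanced in every library. Type I keratins summed to 7.15 and 14.1 RPKM in KO-labelled libraries and 18.5 and 4.16 RPKM in WT. Type II keratins summed to 0.268 and 0.700 RPKM in KO-labelled libraries and 1.16 and 0.127 RPKM in WT. The ratio of type I to type II was 26.7 and 20.2 in KO-labelled libraries, against 15.97 and 32.7 in WT, so the excess of type I was present in each. The type II genes Krt6a and Krt6b and the type I genes Krt33a and Krt33b fall outside the members, since their names end in a letter. With these 4 added, a step chosen after seeing the data, the ratio was 16.58 and 10.48 in KO-labelled libraries, against 11.8 and 32.7 in WT, so type I still exceeded type II in each library, by less in all but WT 2. Krt20 made up 52.7% and 58.2% of the type I reads in KO-labelled libraries, against 50.6% and 26.1% in WT. Krt36, whose count can include reads outside the annotated exons, is also in the type I sum. In WT 2 it gave 206 of the 541 type I reads, against 141 from Krt20. The genes of the types lie apart in the genome, with 25 of the 26 type I rows on mm9 chromosome 11 and all 21 type II rows on chromosome 15, beside Krt18.

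**Figure D2:**
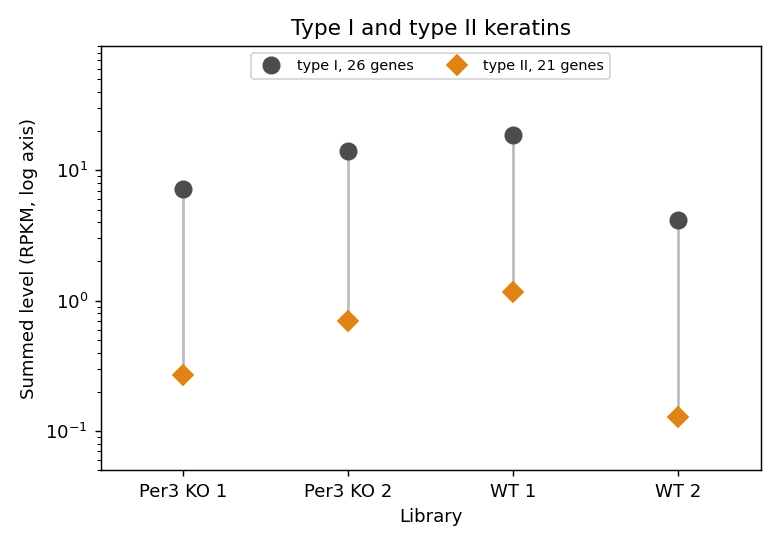
Summed RPKM (log y axis) of the 26 type I and the 21 type II keratins in each library (x axis), joined by a line. The type I sum lies 15.97 to 32.7 times above the type II sum in the 4 libraries.

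Claudins carried most of the reads of the 78 genes. Their sum was 82.7 and 114 CPM in KO-labelled libraries, against 99.2 and 213 CPM in WT. Cldn10, which forms ion-selective pores, was the most abundant member per length in each library, at 19.9 and 27.4 RPKM in KO-labelled libraries and 21.9 and 79.1 RPKM in WT. Its reads were 1383 and 3174 in KO-labelled libraries, against 1404 and 4296 in WT. WT 2 stood above the other libraries, which lay close together, and the groups overlapped. Its log2 fold change was -1.52 ± 0.76 (SE), and 0.08 once WT 2 was left out. RefSeq gives Cldn10 2 start sites 67.1 kb apart, and its row (mm9 chromosome 14, 119254172 to 119273746) spans 19.6 kb, so the row holds at most 1 of these sites. Whether transcripts from the other site add reads to the row was not tested.

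Cldn15, a cation pore of the intestine, had 1443 and 3736 reads in KO-labelled libraries, against 1502 and 245 in WT. It stood at 43.0 ± 11.6 CPM in KO-labelled libraries and 24.9 ± 20.3 CPM in WT (SD, n = 2), and here WT 2 lay below the other libraries, opposite to Cldn10. Its log2 fold change of 0.79 ± 0.68 (SE) ranged from 0.14 to 2.04 with a library left out. Cldn12, an atypical claudin without the usual binding tail for junction scaffolds, had 374 and 974 reads in KO-labelled libraries, against 603 and 185 in WT, with a log2 fold change of -0.08 ± 0.66 (SE). Cldn22 had 73 and 37 reads in KO-labelled libraries, against 34 and 96 in WT. Cldn5, the claudin of endothelium that the CD31- gate would remove, had 0 and 0.9926 reads in KO-labelled libraries, against 0.9887 and 0 in WT. Cldn8, Cldn14, Cldn16 and Cldn20 had 0 reads in all libraries.

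**Figure D3:**
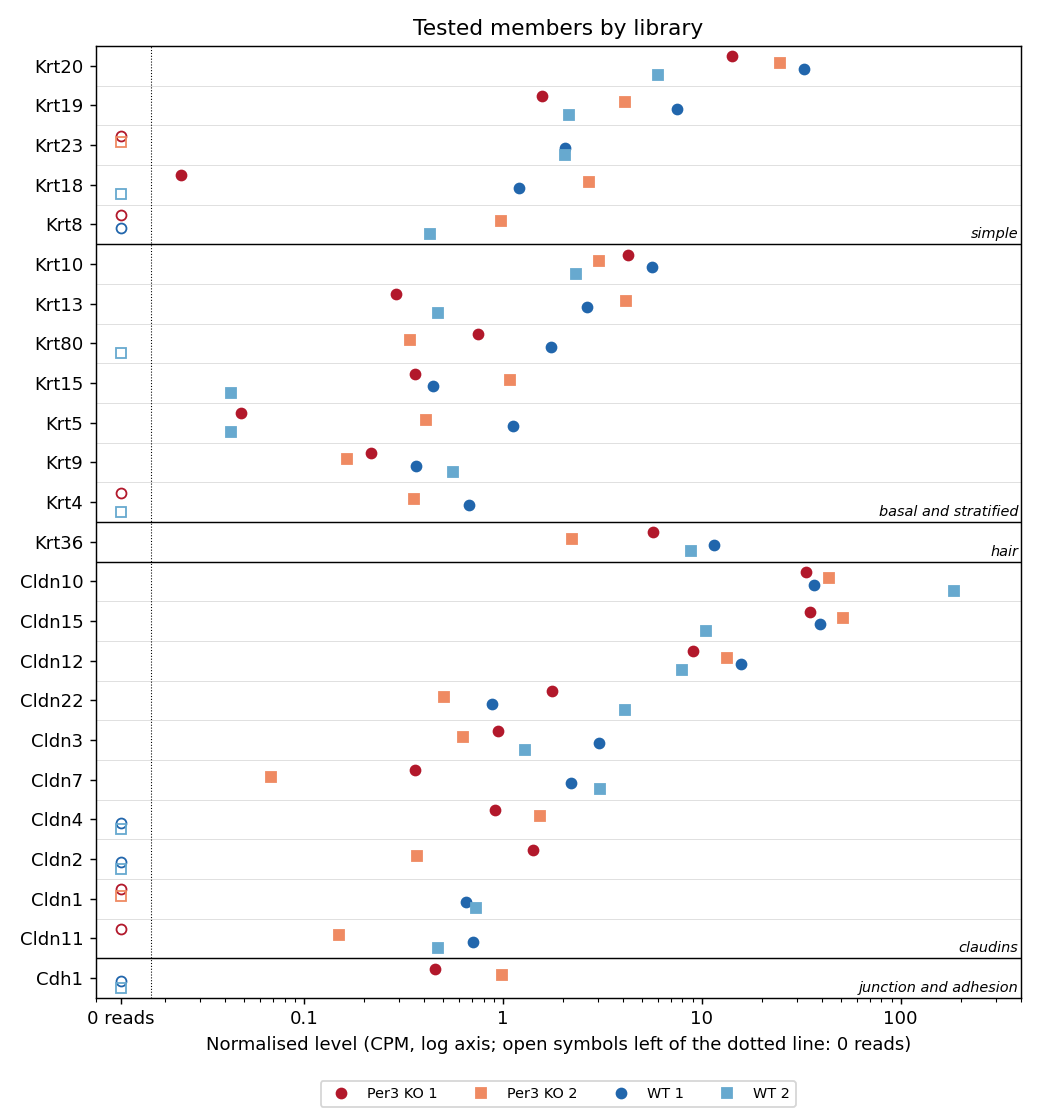
Normalised level (CPM, log x axis) of the 24 tested members in each library, grouped by role, with open symbols for 0 reads. Cldn10, Cldn15 and Krt20 lead, and Krt23, Cldn1, Cldn4, Cldn2 and Cdh1 have 0 reads in both libraries of a group.

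Several members of low abundance separated the groups, in both directions. Of the tested members 3 had 0 reads in both WT libraries, as did 0.584% of all genes tested, and 2 had 0 reads in both KO-labelled libraries, as did 0.232%. Cldn4, a barrier claudin of many epithelia, had 38 and 112 reads in KO-labelled libraries, against 0 and 0 in WT, at least 11.8-fold higher against a floor of 3 reads per library. Cldn2, the cation pore of leaky epithelia, had 59 and 27 reads in KO-labelled libraries, against 0 and 0 in WT, at least 8.66-fold higher. That bound was 3.58 when Per3 KO 1 was left out and 13.7 when Per3 KO 2 was. Cdh1 had 19 and 72 reads in KO-labelled libraries, against 0 and 0 in WT, at least 6.98-fold higher, a bound of 4.43 when Per3 KO 2 was left out. Cldn4, Cldn2 and Cdh1 are grouped here for their 0 reads in WT, and had enough reads to be tested in the KO-labelled group only. Their shared direction follows from that choice. Epcam, which accompanies Cdh1 in most epithelia, had 0 and 1 read in KO-labelled libraries, against 0 and 1 in WT. Cldn1, the claudin of the epidermal barrier, had 0 and 0 reads in KO-labelled libraries, against 25 and 17 in WT, at least 12.2-fold lower. Cldn7, which sits along the sides of epithelial cells, had 14.92 and 5 reads in KO-labelled libraries, against 84 and 72 in WT, or 0.215 ± 0.208 against 2.64 ± 0.639 CPM (SD, n = 2). Its log2 fold change was -3.62 ± 1.74 (SE), from -5.23 to -2.86 with a library left out. On mm9, the rows of these genes outside chromosome 5 are Cldn2 on chromosome X, 136335367 to 136345923, Cdh1 on chromosome 8, 109127268 to 109194146, Cldn1 on chromosome 16, 26356737 to 26371925, and Cldn7 on chromosome 11, 69779003 to 69781380. Cldn11, the claudin of myelin and Sertoli cells, had 0 and 11 reads in KO-labelled libraries, against 27 and 10.98 in WT.

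**Figure D4:**
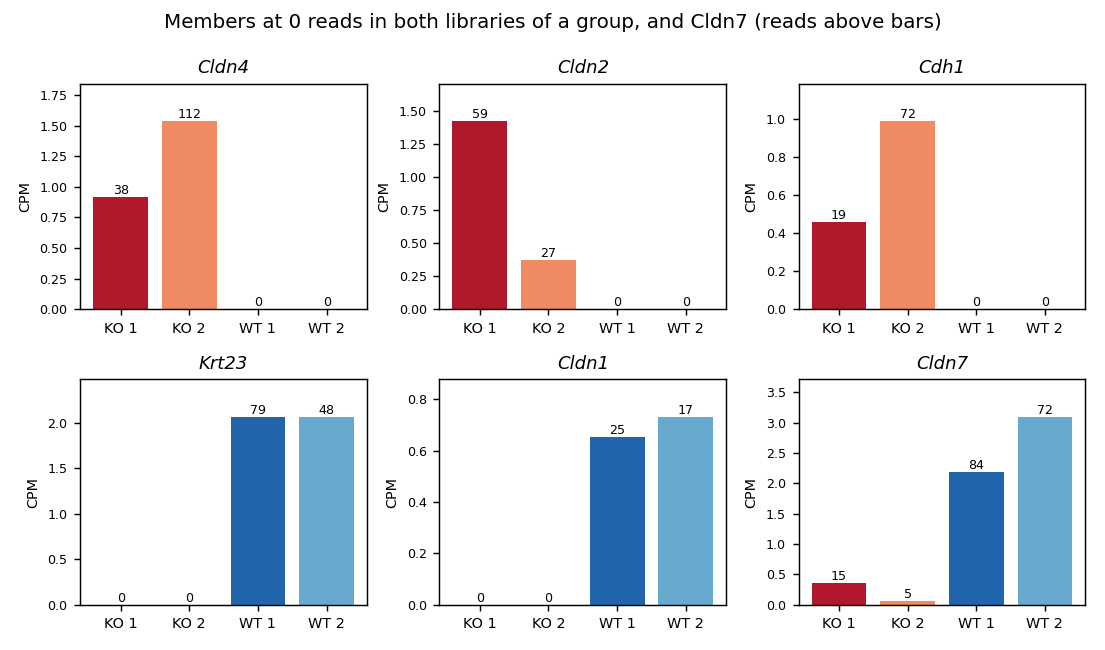
Normalised level (CPM, y axis from 0) in each library (x axis) of the 5 tested members with 0 reads in both libraries of a group and of Cldn7, with rounded reads above the bars. Cldn4, Cldn2 and Cdh1 are read in the KO-labelled libraries alone, Krt23 and Cldn1 in the WT libraries alone.

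Of 3 claudin genes in a row on chromosome 5, Cldn13 and Cldn4 had reads in KO-labelled libraries alone, while Cldn3 was read in every library, with a lower mean CPM there. On mm9 chromosome 5, Cldn13 (135390120 to 135391396), Cldn4 (135420993 to 135422804) and Cldn3 (135462084 to 135463342) lie 29.6 and 39.3 kb apart, with the row Wbscr27 between Cldn13 and Cldn4 and no row between Cldn4 and Cldn3. Cldn13, a claudin of mouse blood-forming tissue, had 1 and 162 reads in KO-labelled libraries, against 0 and 0 in WT, so its difference rested on Per3 KO 2. Cldn3, a barrier claudin close to Cldn4 in sequence, had 39 and 46 reads in KO-labelled libraries, against 117 and 30 in WT. In CPM both KO-labelled libraries lay below both WT libraries in Cldn3, at 0.786 ± 0.219 against 2.17 ± 1.25 CPM (SD, n = 2). In the deposited RPKM the groups overlapped, at 0.422 and 0.298 in KO-labelled libraries against 1.37 and 0.415 in WT, so the separation of Cldn3 depends on the scaling. The log2 fold change of Cldn3 was -1.46 ± 1.502 (SE), from -1.95 to -0.71 with a library left out. Counts of genes with a like copy, such as Cldn3 with Cldn4 or Krt6b with Krt6a, are uncertain, because the handling of reads that match several genes is not given in the sources used here.

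The 250 bases before the RefSeq start (GRCm38.p6, 5' to 3' on the gene's strand) are shown for 4 of the 5 tested members with 0 reads in a whole group. Cdh1 is left out because no promoter was matched for it. Capitals mark matches, on both strands, to 4 motifs: CACGTG, the E-box of clock factors; CAGGTG, the E-box of the Snail and ZEB repressors of epithelial genes; AACCNGTT, the Grainyhead motif; and TATAAA.
Cldn4, chr5:134946935-134947184, strand -: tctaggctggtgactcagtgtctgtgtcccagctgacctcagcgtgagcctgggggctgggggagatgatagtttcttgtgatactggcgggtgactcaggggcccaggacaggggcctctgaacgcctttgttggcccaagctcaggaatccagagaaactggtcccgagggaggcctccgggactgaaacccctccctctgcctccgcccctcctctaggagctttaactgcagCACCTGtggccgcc
Cldn2, chrX:139800558-139800807, strand +: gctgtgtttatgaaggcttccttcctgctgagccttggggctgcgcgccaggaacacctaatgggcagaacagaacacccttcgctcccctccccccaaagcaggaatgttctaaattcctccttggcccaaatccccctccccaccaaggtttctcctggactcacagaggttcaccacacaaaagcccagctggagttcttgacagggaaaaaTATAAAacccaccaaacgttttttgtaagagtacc
Krt23, chr11:99493121-99493370, strand -: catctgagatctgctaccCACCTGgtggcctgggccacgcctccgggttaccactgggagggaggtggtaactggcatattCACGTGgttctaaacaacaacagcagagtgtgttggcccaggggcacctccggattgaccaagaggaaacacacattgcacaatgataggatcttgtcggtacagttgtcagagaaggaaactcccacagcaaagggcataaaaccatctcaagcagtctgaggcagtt
Cldn1, chr16:26371840-26372089, strand -: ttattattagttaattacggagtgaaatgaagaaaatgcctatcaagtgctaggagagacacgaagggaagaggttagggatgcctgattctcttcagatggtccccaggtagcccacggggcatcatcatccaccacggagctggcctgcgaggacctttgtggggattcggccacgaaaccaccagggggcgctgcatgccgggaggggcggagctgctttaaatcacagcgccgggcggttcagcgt

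In these windows CACGTG occurred in Krt23, with its first base at -169 from the start, and CAGGTG or its reverse complement occurred in Cldn4 at -14 and in Krt23 at -232. TATAAA occurred in Cldn2 at -35, and Cldn1 held none of the 4 motifs. Promoters were matched for 19 of the 24 tested members, all but Cdh1, Krt15, Krt19, Krt4 and Krt80. Some genes have several starts, which gave 24 windows. CAGGTG was in 7 of the 24, 1 each of Cldn4, Cldn7, Krt5, Krt8, Krt10, Krt18 and Krt23, and in 17.2% of all 32851 promoter windows of the same length. CACGTG was in 1 member window against 6.02% of windows, TATAAA in 3 against 12.4%, and AACCNGTT in 0 against 1.79%. Cldn4 and Cldn3 differ here, since the Cldn3 window holds none of the 4 motifs. A match is a description of the letters and not of binding.

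KO-labelled libraries were set against WT libraries in 1 fit over all genes, with edgeR's quasi-likelihood test and Benjamini-Hochberg adjustment. No member passed an adjusted p of 0.05, and the smallest adjusted p among the 24 tested was 0.9999. Over all 12494 genes tested 0 passed (0.0%). At an unadjusted p under 0.05 there were 5 members, namely Krt23, Cldn4, Cldn1, Cldn2 and Cdh1, where 2.06% of all genes tested were under it, and DESeq2 called 0 members and 14 genes in all (0.112%). These 5 are the tested members with 0 reads in a whole group. They, Cldn11 and Krt9 had enough reads to be tested in 1 group only, so they had to differ to be tested, and their number does not support a difference. Among all genes tested 301 entered in that way, and 102 had 0 reads in both libraries of a group (0.816%).

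The log2 fold change was above 0 in 9 of the 24 tested members and below 0 in 15. The median was -0.72, also with the 5 genes at 0 set at their bound, beside 0.0092 over all genes tested. It was 0.58 without WT 1. In CPM the KO-labelled pair lay above the WT pair in 3 members, Cldn2, Cldn4 and Cdh1, against 14.6% of all genes. It lay below in 7 members, Cldn1, Cldn3, Cldn7, Cldn11, Krt9, Krt23 and Krt36, against 11.5% of all genes. All 3 of the former had enough reads to be tested in 1 group only, as had Cldn1, Cldn11, Krt9 and Krt23. Their separation was thus set by the filter, and these counts do not support a difference. No exact permutation test of 2 against 2 libraries can go below p = 0.3333, so no single sum was tested. The keratin sum was 36.3 ± 11.97 CPM in KO-labelled libraries and 46.3 ± 31.7 CPM in WT, and the claudin sum 98.2 ± 21.9 and 156 ± 80.5 CPM (SD, n = 2). Their log2 ratios of -0.35 and -0.67 became 0.61 without WT 1 and -0.014 without WT 2.

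**Figure D5:**
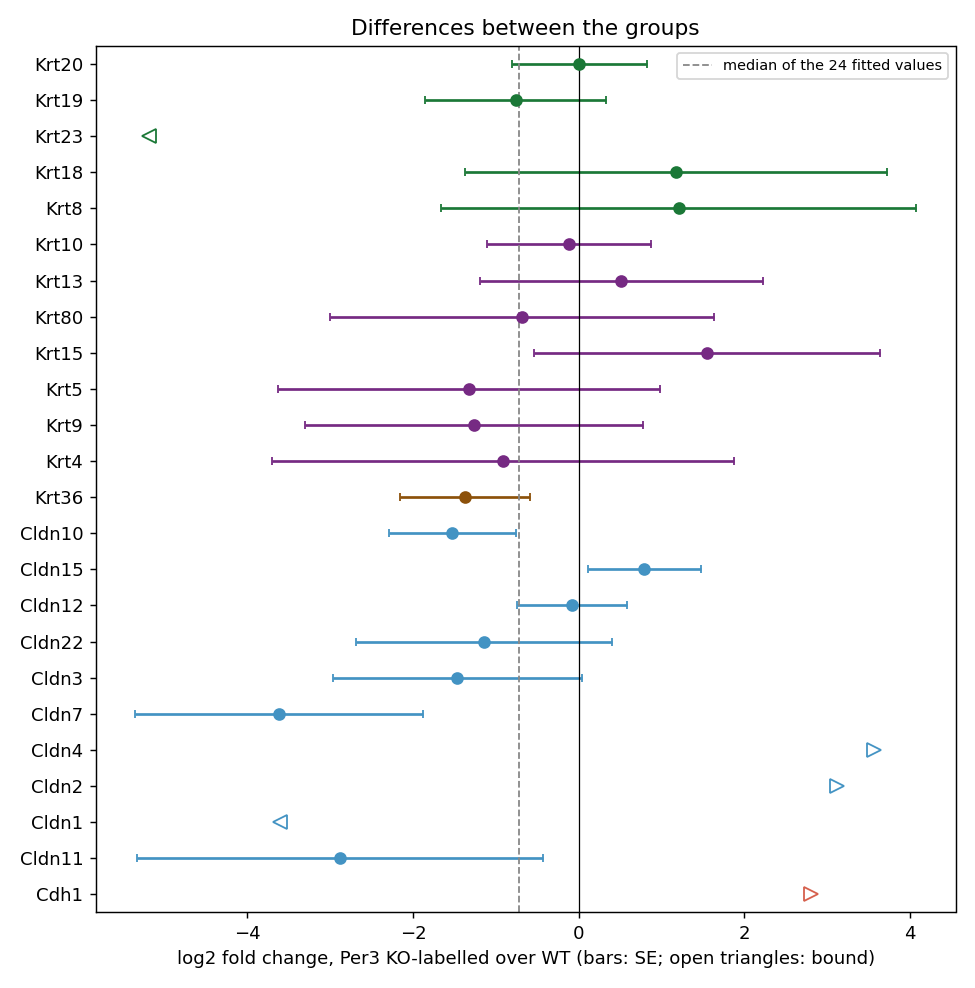
Log2 fold change of the KO-labelled over the WT libraries (x axis) for the 24 tested members, with SE bars, and open triangles for members with 0 reads in a whole group, placed at the bound from a floor of 3 reads. Most SE bars cross 0, and the dashed line marks the median of -0.72.

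The partners of these genes in junctions were read from lists of other genes, none of which had a member past an adjusted p of 0.05 (edgeR). Of 14 further tight junction genes 8 were tested, 5 higher and 3 lower, and the KO-labelled pair lay above the WT pair in 3, where 14.6% of all genes tested did so. Among them were the scaffold gene Cgnl1, at 6.49 ± 2.90 CPM in KO-labelled libraries and 1.00 ± 1.196 CPM in WT, and the adhesion molecule gene F11r, at 7.40 ± 1.62 and 3.48 ± 0.908 CPM (SD, n = 2). Lower mean levels in KO-labelled libraries were found for the polarity scaffold genes Inadl, at 0.163 ± 0.196 and 1.34 ± 1.63 CPM, and Mpp5, at 8.75 ± 1.92 and 11.7 ± 4.52 CPM in KO-labelled and WT libraries (SD, n = 2), with overlapping groups. Occludin, Ocln, the other membrane protein of epithelial tight junctions, had 0 and 1 read in KO-labelled libraries, against 0 and 0 in WT. Of 15 adherens junction and desmosome genes 7 were tested, 4 higher and 3 lower, with overlap in all. The catenin gene Ctnnb1 had 200 ± 17.1 CPM in KO-labelled libraries and 185 ± 49.0 CPM in WT, whereas Pkp1, Pkp3 and Dsc3 of the desmosome had 0 reads. Others on that list were read in every library. Jup had 30.4 ± 5.36 CPM in KO-labelled libraries and 24.8 ± 8.06 CPM in WT, and Ppl 11.1 ± 5.52 and 11.6 ± 6.18 CPM (SD, n = 2). Pkp2 had 25 and 0 reads in KO-labelled libraries, against 6 and 24 in WT, and Dsc2 had 60 in Per3 KO 2 alone. Desmoplakin, Dsp, had 0 and 65.97 reads in KO-labelled libraries, against 16.99 and 0 in WT, and like Krt4 it was read in Per3 KO 2 and WT 1 alone.

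Of 12 epithelial transcription and splicing factors 3 were tested. The Grainyhead factor gene Grhl1 had 35.99 and 217 reads in KO-labelled libraries, against 0 and 0 in WT, at least 18.6-fold higher, a bound of 8.39 when Per3 KO 2 was left out. Grhl1 had enough reads to be tested in the KO-labelled group only, so it had to differ to be tested. Of all genes tested, 0.584% had 0 reads in both WT libraries. Klf5 had 610 and 346 reads in KO-labelled libraries, against 178 and 0 in WT, and Klf4 stood at 395 ± 16.003 CPM in KO-labelled libraries and 657 ± 472 CPM in WT (SD, n = 2). Trp63, the master factor of basal epithelium, and Grhl3 had 0 reads, and the splicing factor genes Esrp1 and Esrp2 had at most 3 in any library. Of 8 epithelial surface genes 2 were tested, and the mucin gene Muc1 had 3.35 ± 0.203 CPM in KO-labelled libraries and 0.421 ± 0.559 CPM in WT (SD, n = 2). The other, Cd24a, had 20.6 ± 10.3 CPM in KO-labelled libraries and 21.3 ± 2.98 CPM in WT. All 10 mesenchymal counterparts were tested, 3 higher and 7 lower. Vimentin, Vim, the intermediate filament of mesenchymal cells, stood at 1434 ± 121 CPM in KO-labelled libraries and 1968 ± 267 CPM in WT. Zeb2, a repressor of epithelial genes, stood at 43.7 ± 9.12 CPM in KO-labelled libraries and 34.5 ± 0.658 CPM in WT, with the KO-labelled pair above the WT pair. The summed level of these 10 genes was 5754 and 7319 CPM in KO-labelled libraries, against 7246 and 6913 CPM in WT, far above that of the 78 epithelial genes.

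Markers of other cells are set beside these values. Leukocyte genes summed to 23.7 and 12.1 CPM in KO-labelled libraries, against 7.22 and 25.01 CPM in WT, with 1 of 4 tested higher. The defining gene Ptprc had 4 and 50 reads in KO-labelled libraries, against 0 and 5 in WT, and Cd74 had 466 and 538, against 118 and 110. Cd79a had 183 and 279 reads in KO-labelled libraries, against 96 and 157 in WT, and Lyz2 had 327 and 0, against 25.99 and 184. Cd52 had 0 and 0 reads in KO-labelled libraries, against 28 and 126 in WT, at least 54.1-fold lower, a bound of 95.4 when WT 1 was left out and 12.9 when WT 2 was. Cd52 had enough reads to be tested in the WT group only, so it had to differ to be tested. Of all genes tested, 0.232% had 0 reads in both KO-labelled libraries. Endothelial genes summed to 73.7 and 174 CPM, against 160 and 134 CPM in WT, mostly Tek, with 4 of 6 tested higher, and Tie1 and Erg were at 0. Pecam1, which encodes the CD31 of the gate, was read in every library, with 279 and 378 reads in KO-labelled libraries against 79 and 206 in WT. Esam had 72.99 and 389 reads in KO-labelled libraries, against 89 and 0 in WT, and Cdh5, Kdr and Emcn had at most 78 in any library. Further mesothelial genes summed to 8.69 and 6.13 CPM, against 11.2 and 28.1 CPM, with 1 of 2 tested higher, and mammary genes to 47.7 and 38.4 CPM, against 54.7 and 36.7 CPM, mostly the prolactin receptor gene Prlr, with 0 of 3 tested higher and Wap at 0. Precursor genes summed to 45747 and 41492 CPM, against 41593 and 74028 CPM in WT, with 3 of 10 higher. Epidermis and hair follicle genes summed to 146 and 199 CPM, against 142 and 1279 CPM in WT, mostly Sbsn, Krtdap and Dmkn, with 3 of 7 tested higher and Ivl at 0. The part of these cells in the keratin and claudin counts was not tested.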

How the data were processed

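Libraries were primed with oligo d(T), per the labels' protocols. Per the file headers, each deposited file gives 1 library: an estimated count for every gene, not normalised, and RPKM scaled by the authors for transcript length and library total. The deposited Z-score, a score within a library, and the RMS-normalised ratio by the authors were not used. The submitters' processing notes name STAR 2.4.0, Cufflinks, Cuffdiff 2.2.1 and mm9, with no role for each. No counter, annotation or strand setting is given in the sources used here. Of the values, 8.85% to 12.0% per library were not whole (tolerance 1e-09).

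Counts were rounded. Genes were kept by filterByExpr (minimum count 10, minimum total 15), libraries scaled by TMM (factors 1.04, 1.12, 1.03 and 0.833 for Per3 KO 1, Per3 KO 2, WT 1 and WT 2) and groups compared with edgeR 4.0.16 in R 4.3.3 (glmQLFTest, prior count 0.125, two-sided, threshold 0.05), adjusted over all 12494 genes. Alternatives used DESeq2 1.42.0, limma 3.58.1 on log2(RPKM + pseudocount), other filters, a replicate block and each library left out. The pipeline was run on simulated counts, with a pass mark set only at a spread far below that of these libraries. Recovery at the spread of these libraries is not reported here. Floors of 3 reads cover counting error only, since reads are not independent molecules. They were 0.0412 to 0.129 CPM, depending on the library's depth.

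Genes and lists were chosen with earlier results of these data known. Named were all members tested, all others with at least 20 reads, and from each other list some of up to 5 genes by lowest p, not all of them. Names outside this rule were chosen after their values were seen, among them genes at 0 and Pdgfra, Dcn, Krt6b, Pecam1 and Ppl. Promoter sequences are from RefSeq on GRCm38.p6, another build than the tables' mm9, and no coordinates were converted. Some genes of the other lists are counted but not reported here by name.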

Additional observations from a re-analysis of the deposited data

How the results depend on the processing

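Called genes numbered 0 in the edgeR fit, 14 with DESeq2, 4 with no filter, 1 with limma on log2(RPKM + 0.1), log2(RPKM + 0.5) or log2(RPKM + 1), and 1 to 4 with a library left out, and 0 members were called in any of these. With the replicate number as a block 1 gene was called and with the crossed replicate block, added after seeing the data, 2. Replicate differences of the groups correlated at -0.154 across 12494 genes, so the numbers were not taken as pairs. The members' median log2 fold change of -0.72 was 0.23, 0.16 and 0.12 in the 3 limma fits, where 5 members passed a mean RPKM of 1, and -1.07 to 0.58 with a library left out. With a library left out, log2 ratios of summed CPM ran from -0.92 to 0.61 for keratins, -0.89 to 0.58 for type I, -1.43 to 1.39 for type II, -0.84 to 1.18 for simple, -0.75 to 1.12 for stratified, -2.19 to -0.85 for hair keratins and -1.12 to -0.014 for claudins. Of 240 member values under alternatives 24 turned in sign, 16 of them with a library left out. Krt20 was -0.00795 with DESeq2 and -0.00831 with its size factors in edgeR, and Cldn12 was 0.23, 0.16 and 0.12 with limma. Krt13 was -0.021 with the replicate block, and Krt80 was 1.45 with the replicate block and 1.26 with the crossed one. With a library left out the range was -0.48 to 0.50 for Cldn12, -2.26 to 0.077 for Cldn10, -2.33 to 0.35 for Cldn22, -0.62 to 0.66 for Krt10, -2.41 to 2.24 for Krt13, -4.45 to 8.98 for Krt18, -1.62 to 0.41 for Krt19, -0.74 to 1.69 for Krt20, -6.57 to 6.07 for Krt4, -3.51 to 2.36 for Krt5 and -1.68 to 7.65 for Krt80. The cause was not tested, except that limma tested fewer members by its filter. Where 1 library stayed in a group, its spread was taken from the other group. Depth limits members under about 3 reads in a library, which cannot be told from 0.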

Other observations

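Among 10 epidermis and hair follicle genes outside the members, Sbsn, Dmkn and Krtdap, chosen after their values were seen, were abundant. The others on that list reached at most 2.28 CPM in any library, the level of Lgals7 in WT 2. Perp, at low counts, was higher in both KO-labelled libraries, as were 14.6% of all genes tested. Perp had enough reads to be tested in the KO-labelled group only, so it had to differ to be tested. Sbsn, Dmkn and Krtdap encode secreted proteins of maturing keratinocytes and lie next to each other on mm9 chromosome 7, with Sbsn at 31536490 to 31541153 and Krtdap at 31572924 to 31576102. Sbsn had 93.0 and 113 CPM in KO-labelled libraries, against 90.4 and 717 CPM in WT. Krtdap had 34.6 and 48.7 CPM in KO-labelled libraries, against 29.4 and 285 CPM in WT, and Dmkn had 16.7 and 33.3 CPM, against 19.7 and 273 CPM. In these genes WT 2 stood above the other libraries, which lay close together, as it did in Cldn10. Lgals7 and Sfn, at low counts, were also highest in WT 2 in CPM, with 53 and 38 reads there. In WT 2 Krt10 had 53.99 reads, Krt14 had 2, Krt5 had 0.9976 and Krt1, Ivl and Lor had 0. The log2 fold changes were -1.97 ± 0.93 for Sbsn, -1.92 ± 0.96 for Krtdap and -2.55 ± 1.09 for Dmkn (SE), with overlapping groups and edgeR adjusted p = 0.9999 each.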
